A study of Mus musculus with 4 samples.

Results

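The SLAM family is a group of immunoglobulin-like receptors on the surface of blood cells, and 9 of its genes were measured here: Slamf1, Cd48, Cd244, Ly9, Cd84, Slamf6, Slamf7, Slamf8 and Slamf9. Members were taken by gene name, as all probe sets annotated to 1 of these genes and to no other, and the family itself was picked with earlier results of these data known. This gave 15 of the 45037 probe sets tested, with 3 each for Slamf1 and Slamf6, 2 each for Cd244 and Cd84 and 1 for each of the other 5 genes. The annotation lists Cd244 under its current symbol Cd244a, which is used below.

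The cells were LSK cells of mouse bone marrow flushed from femurs, that is cells without lineage markers that carry c-Kit and Sca1, the fraction in which haematopoietic stem cells and multipotent progenitors lie. By fluorescence of c-Myc fused to eGFP they were divided into Hi and Lo cells, and each group was put on 2 Affymetrix mouse arrays. Both groups are labelled WT with the strain B6/129, and both carried the fusion protein, so the groups differ by the sorted level of c-Myc and by no genotype or treatment that the labels name. Age, sex and the number of mice per array were not analysed here. B6 and 129 strains are known to carry different haplotypes of the SLAM gene cluster, and the haplotype of the mice on each array was not analysed here. Nothing in the labels says whether replicates came from separate mice, so the p-values measure the spread between these arrays, which may be technical.

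Most SLAM receptors bind a receptor of the same kind on a neighbouring cell, while Cd48, which is anchored in the membrane by a lipid, is the ligand of Cd244. The tails of Slamf1, Cd244, Ly9, Cd84 and Slamf6 carry tyrosine switch motifs that bind the small adaptor SAP and its relatives, and SAP brings in the kinase Fyn. In mouse marrow the family is known for sorting: long-term stem cells carry the Slamf1 protein (CD150) and lack Cd48, many multipotent progenitors carry Cd244, and restricted progenitors carry Cd48. The comparison of Hi with Lo asks which transcripts go with the level of c-Myc protein among LSK cells, and for this family how the sorting genes stand.

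In Hi cells the stem cell marker gene Slamf1 had lower values than in Lo cells, by 1.68 on the log2 scale (Hi minus Lo -1.68), and the progenitor marker genes Cd48 and Cd244a had higher values, by 0.74 and 1.39. Slamf7 and Slamf8 also had lower values in Hi. The groups did not overlap for the brightest probe set of any of these 5 genes, nor for Cd84 and Slamf6. Of the 9 members, 3 had the Hi arrays as the higher pair and 4 as the lower pair. Such a lack of overlap was common among all 18193 genes at their brightest probe set. There Hi was the higher pair in 30% and the lower pair in 25.4%, so it does not set these genes apart. None of the 15 member probe sets was called. A call here is an adjusted p under 0.05 in a limma fit over all 4 arrays, with the Benjamini-Hochberg adjustment over all 45037 probe sets. It was reached by 0% of all probe sets, and the smallest adjusted p was 0.146 among the members and 0.0839 among all. In a fit over the brightest probe set of each gene 404 of 18193 genes were called, and 0 of them were members. In bulk samples of this kind, fewer cells that express a gene and less RNA per cell cannot be told apart.

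At an unadjusted p under 0.05, 3 member probe sets were higher in Hi and 3 lower, against 9.05% and 8.91% of all probe sets. Together these 6 are 40% of the members, where the share over all probe sets was 18.0%. The count rests on the test and on single arrays: it was 0, beside 13.2% of all probe sets, with the ordinary test without moderation, and 3, beside 18.9%, without Lo replicate 2. The groups did not overlap in 10 member probe sets, against 51.3% of all probe sets. In 5 of the 10, 1 of them a Slamf6 probe set under the dim limit throughout, the Hi arrays were the higher pair, against 29.3% of all probe sets, and in the other 5 the lower pair, against 22.0%. The median difference of Hi minus Lo on the log2 scale was -0.21 over the 15 member probe sets and 0.04 over all probe sets. The median size of the difference without its sign was 0.74 for the members and 0.25 for all. Probe sets of 1 gene share their transcript, so the 15 are not independent of each other.

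**Figure D1:**
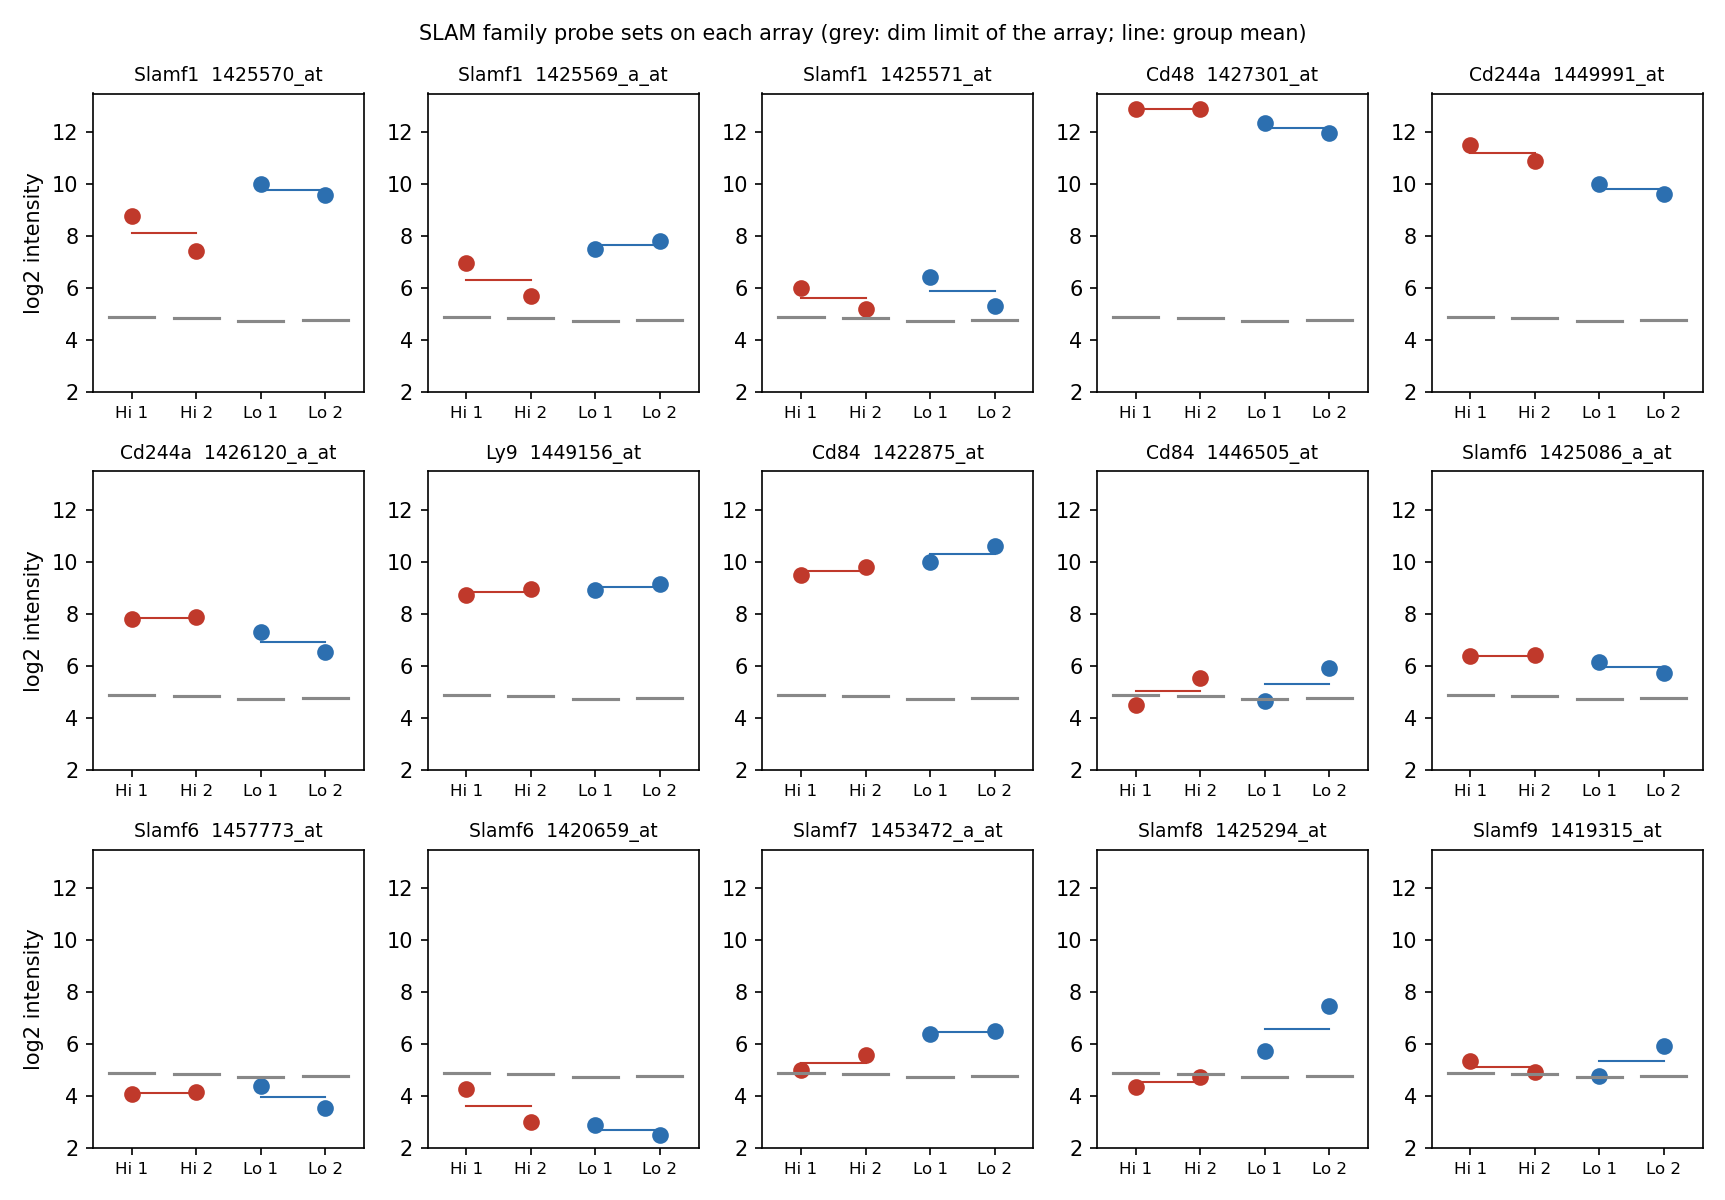
Log2 intensity (vertical axis) of each of the 15 SLAM family probe sets on the 4 arrays (horizontal axis, red Hi, blue Lo), with the group mean as a coloured line and the array's dim limit as a grey line. Slamf1 1425570_at is lower on both Hi arrays, Cd48 and both Cd244a probe sets are higher on both, and the levels of different probe sets cannot be set against each other.

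**Figure D2:**
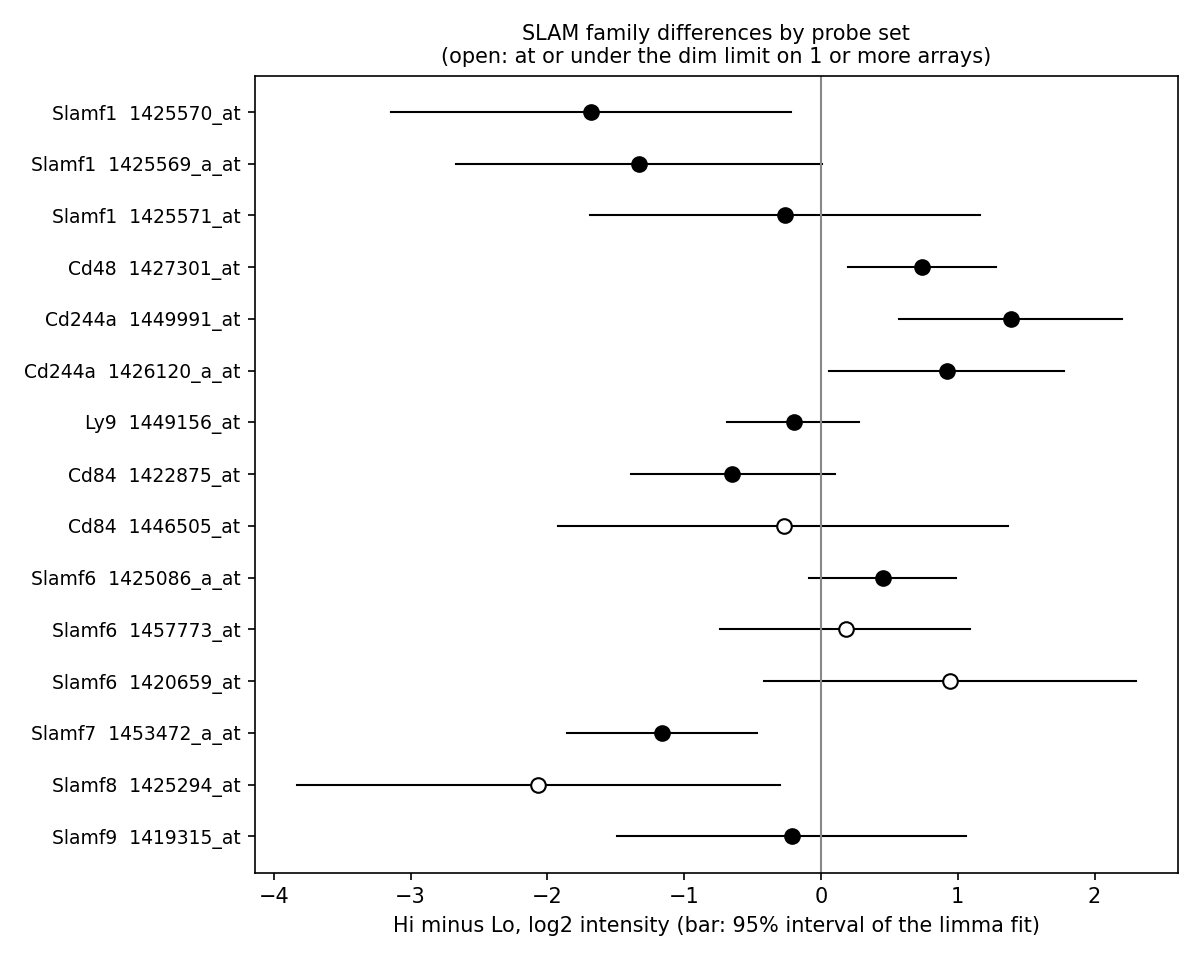
Difference of Hi minus Lo in log2 intensity (horizontal axis) for each SLAM family probe set (vertical axis), with the 95% interval of the limma fit as a bar and open points for probe sets at or under the dim limit on 1 or more arrays. The intervals of 6 probe sets exclude 0, with Cd48 and both probe sets of Cd244a above it, and 1 of Slamf1, Slamf7 and Slamf8 below it.

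The array medians lay between 5.7 and 5.82 on the log2 scale. The submitters' processing (RMA) makes the arrays alike in distribution, so these medians are no check on the samples. Across probe sets, which are no independent replicates, r was 0.99 between the Hi arrays and 0.983 between the Lo arrays. Between a Hi and a Lo array it was 0.972 to 0.976, only a little lower. A dim limit was set on each array, between 4.74 and 4.87 on the log2 scale, from 27 controls of bacterial genes, by taking the brightest of them. It takes these controls to be absent from the sample, and whether their RNA had been added was not analysed here. Myc itself had 12.41 on both Hi arrays and 11.7 and 10.64 on the Lo arrays, in the direction of the sort. Of the genes that define the gate, Kit was bright on all arrays, at 11.39 and 11.58 (Hi) and at 11.95 and 11.55 (Lo). Ly6a, which encodes Sca1, was not analysed here. All 7 measured LSK marker genes exceeded the dim limit on every array, with a summed linear intensity of 31402 to 33335 in Hi and 37142 to 37703 in Lo. Of the 7, 0 were higher in Hi and 2 lower at an unadjusted p under 0.05, beside 9.25% and 11.0% of all genes. The 2 were Meis1 at -0.74 and Gata2 at -0.47. Of 2 signs of RNA quality 1 went with the groups, since the 3′ end of Gapdh exceeded its 5′ end by 0.63 and 0.65 log2 units on the Hi arrays and by 0.74 and 0.78 on the Lo arrays, while for Actb the groups overlapped, at 0.6 and 0.55 (Hi) and 0.84 and 0.57 (Lo). The part of RNA quality in the differences below was not tested.

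The 3 genes used most for sorting are shown first, each with the 250 bases before its transcript start, since their differences were of opposite sign although they lie in 1 cluster on chromosome 1. The sequences are from RefSeq, build GRCm38.p6, and each is written 5′ to 3′ on the plus strand, which is the strand of all 3 genes. Capitals mark matches to 5 motifs. These are the E-box CACGTG that Myc with Max can bind, the E-box CAGCTG of E proteins, the GATA factor motif AGATAA, the Runx factor motif TGTGGT and the Ets factor motif CCGGAA.
Slamf1, chr1:171766882-171767131, plus strand: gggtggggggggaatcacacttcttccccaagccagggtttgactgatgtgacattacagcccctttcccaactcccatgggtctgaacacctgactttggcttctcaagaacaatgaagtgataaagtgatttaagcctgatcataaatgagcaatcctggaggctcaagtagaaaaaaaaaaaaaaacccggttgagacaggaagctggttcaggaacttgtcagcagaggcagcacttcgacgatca
Cd48, chr1:171681742-171681991, plus strand: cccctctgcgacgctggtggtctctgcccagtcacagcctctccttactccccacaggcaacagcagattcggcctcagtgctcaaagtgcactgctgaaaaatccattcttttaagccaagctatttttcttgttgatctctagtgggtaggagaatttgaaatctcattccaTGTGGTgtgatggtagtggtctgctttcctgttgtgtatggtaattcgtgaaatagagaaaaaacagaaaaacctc
Cd244a, chr1:171558943-171559192, plus strand: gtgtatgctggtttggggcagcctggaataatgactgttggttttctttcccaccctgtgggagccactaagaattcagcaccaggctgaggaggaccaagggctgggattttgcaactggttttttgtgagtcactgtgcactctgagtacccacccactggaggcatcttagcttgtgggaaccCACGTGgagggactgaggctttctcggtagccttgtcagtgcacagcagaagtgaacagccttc

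The motifs were searched on both strands, with the sequences already in view when they were chosen. Cd244a holds 1 match to CACGTG, whose first base lies 64 bases before the start. Cd48 holds 1 match to TGTGGT, 76 bases before the start, and Slamf1 holds no match to any of the 5 in this window. Of the 8 members with a promoter sequence, 3 hold CACGTG, namely Cd244a, Slamf8 and Slamf9, and 2 hold TGTGGT, namely Cd48 and Cd84. CAGCTG is held by Slamf8 and Slamf9, and the GATA and Ets motifs by none of the 8. Ly9 is the member without a sequence. Over all 32851 windows of the same length, 6.02% hold the Myc E-box, 13.0% the E protein motif, 9.99% the GATA motif, 14.0% the Runx motif and 12.0% the Ets motif. Both E-boxes read the same on both strands, and no 2 of the motifs share a match in these windows. Of the 3 members with CACGTG, Cd244a had higher values in Hi, Slamf8 lower ones, and Slamf9 overlapped between the groups. These matches are a description of the letters and show no binding.

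Slamf1 encodes CD150, a receptor that binds itself on other cells and that marks long-term stem cells. Its brightest probe set, 1425570_at, had log2 intensities of 8.79 and 7.42 on the Hi arrays and 10 and 9.57 on the Lo arrays. Both Hi arrays lay below both Lo arrays, and Hi replicate 2 was the lowest of the 4. The Hi mean was 8.11 ± 0.97 and the Lo mean 9.78 ± 0.30 (SD, n = 2 each), a difference of -1.68 ± 0.52 (SE) or 3.19-fold, with a limma unadjusted p of 0.0334 and an adjusted p of 0.235. Without Hi replicate 2 the difference was -0.99, and without Hi replicate 1 it was -2.36.

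The other 2 probe sets of Slamf1 had differences of the same sign and smaller size. The probe set 1425569_a_at stood at 6.97 and 5.69 in Hi and at 7.52 and 7.8 in Lo, again without overlap. Its difference was -1.33 ± 0.48 (SE; limma unadjusted p = 0.0513). The dimmest, 1425571_at, stood at 6.02 and 5.19 in Hi and at 6.43 and 5.31 in Lo, where the groups overlapped, and its difference of -0.26 ± 0.51 had a 95% interval from -1.69 to 1.16. Hi replicate 2 was lower than Hi replicate 1 on all 3 probe sets. With the mean of the 3 probe sets the difference was -1.09.

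Cd48, the lipid-anchored ligand of Cd244 that restricted progenitors carry, has 1 probe set, with log2 intensities of 12.92 and 12.89 in Hi and 12.37 and 11.96 in Lo. Both Hi arrays were higher than both Lo arrays, and the Hi arrays lay closer together than the Lo arrays. The group means of 12.90 ± 0.02 and 12.17 ± 0.29 (SD, n = 2 each) differed by 0.74 ± 0.19 (SE) or 1.67-fold, at a limma unadjusted p of 0.0193 and an adjusted p of 0.19. Cd48 was far above the dim limit in both groups, so Lo cells were not without the transcript.

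Cd244a encodes 2B4, the receptor of Cd48, which natural killer cells and many multipotent progenitors carry. Its brightest probe set, 1449991_at, stood at 11.51 and 10.89 in Hi and at 10.01 and 9.61 in Lo. All Hi values exceeded all Lo values, with a gap between the groups larger than the gap within either. The Hi mean was 11.20 ± 0.44 and the Lo mean 9.81 ± 0.29 (SD, n = 2 each), a difference of 1.39 ± 0.29 (SE) or 2.61-fold. The limma unadjusted p of 0.00908 was the smallest of the 15 members and ranked 2799 among all 45037 probe sets, and the adjusted p was 0.146. Its other probe set, 1426120_a_at, stood at 7.81 and 7.88 in Hi and at 7.32 and 6.53 in Lo, a difference of 0.92 ± 0.31 (SE; limma adjusted p = 0.255). The receptor and its ligand thus both had higher values in Hi, on 3 of their 3 probe sets.

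Since Slamf1 and Cd48 are read together in sorting, their log2 difference was also taken within each array, which a shift of a whole array does not alter. Slamf1 minus Cd48 was -4.13 and -5.47 on the Hi arrays and -2.37 and -2.4 on the Lo arrays. Only the change of this quantity between groups can be read, since 2 probe sets differ in brightness for reasons of their own. It was lower by 2.41 in Hi (Hi minus Lo -2.41), and the 2 Lo arrays were close to each other while the 2 Hi arrays were not. In an exact two-sided permutation test over the 4 arrays p was 0.333, the smallest that 2 against 2 arrays can give.

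Cd84, Ly9 and Slamf6 are receptors that bind themselves and signal through SAP. Cd84, also found on platelets and mast cells, stood at 9.52 and 9.81 in Hi and at 10.01 and 10.61 in Lo on its brightest probe set. The groups did not overlap, with a difference of -0.65 ± 0.27 (SE; limma unadjusted p = 0.0739, adjusted p = 0.327). On its other probe set 1 array of each group did not exceed the dim limit, with 4.52 and 5.55 in Hi, 4.67 and 5.94 in Lo and a difference of -0.27 ± 0.59. Ly9, which lymphocytes carry, stood at 8.74 and 8.96 in Hi and at 8.93 and 9.17 in Lo. The groups overlapped, and the difference of -0.20 ± 0.17 had a 95% interval from -0.69 to 0.28. Slamf6 (Ly108), known from T cells and natural killer cells, stood at 6.39 and 6.42 in Hi and at 6.16 and 5.75 in Lo on its brightest probe set. The Hi arrays were higher without overlap, by 0.45 ± 0.19 (limma unadjusted p = 0.0833, adjusted p = 0.343). The other 2 probe sets of Slamf6 did not exceed the dim limit on any array, with values from 2.49 to 4.37, so their differences are not read.

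Slamf7, a receptor of natural killer and plasma cells that works with the SAP relative EAT-2, stood at 4.99 and 5.58 in Hi and at 6.4 and 6.5 in Lo. The Lo arrays were close together and above both Hi arrays, of which replicate 1 lay just above the dim limit. Hi minus Lo came to -1.16 ± 0.25 (SE) or 2.24-fold, at a limma unadjusted p of 0.00966 and an adjusted p of 0.149. Slamf8, which myeloid cells carry and whose short tail lacks the switch motifs, stood at 4.33 and 4.74 in Hi and at 5.75 and 7.45 in Lo. Both Hi values were under the dim limit, so the fold was taken with the Hi arrays set at their dim limits. It came to 3.32-fold lower in Hi (measured means 4.54 in Hi and 6.60 in Lo, limma adjusted p = 0.23). This is a bound on the Hi side only, since it takes the mean of the Lo values 5.75 and 7.45 as exact. A smaller fold is therefore not excluded. Lo replicate 2 was the higher by a wide margin, and without it the fitted difference was -1.21 in place of -2.07. Slamf9, also with a short tail, stood at 5.36 and 4.91 in Hi and at 4.77 and 5.92 in Lo. The groups overlapped, and the difference of -0.21 ± 0.46 turned to 0.36 without Lo replicate 2 and to 0.01 without Hi replicate 2.

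Several of these genes are known from mature lymphocytes, and markers of other cells differed between the groups too. Of 8 measured T cell markers, 0 were higher in Hi and 4 lower at an unadjusted p under 0.05, where 9.25% and 11.0% of all 18193 genes were, and their summed intensity on the linear scale was 597 to 784 in Hi and 1541 to 1543 in Lo. Bcl11b, at 5.3 and 5.89 in Hi and at 9.5 and 9.37 in Lo, made up most of the difference between these sums. Cd4 went the other way without overlap, at 8.49 and 8.25 in Hi and at 7.94 and 8.09 in Lo. Themis did not exceed the dim limit in Hi and stood at 6.92 and 8.09 in Lo, and Cd3e overlapped between the groups at 5.24 to 5.71. Of 6 measured natural killer cell markers, 1 was higher and 0 lower, the median difference was -0.93, and the summed intensity was 8322 to 8664 in Hi and 6185 to 6918 in Lo. Nkg7 made up most of that sum, while Ncr1, which defines these cells, stood at 4.62 and 5.12 in Hi and at 5.69 and 7.16 in Lo. Within Lo, Ncr1 and Themis were higher on replicate 2, as Slamf8 was. So were Klrd1 (7.4 on replicate 1 and 8.51 on replicate 2), Eomes (5.14 and 5.71), Prf1 (9.35 and 9.71), Cd4 (7.94 and 8.09) and Cd3g (6.45 and 6.49). The other measured markers of these 2 lists were higher on replicate 1. These were Bcl11b (9.5 and 9.37), Cd8a (6.88 and 6.55), Cd3d (6.23 and 5.66), Cd3e (5.71 and 5.25), Cd5 (6.9 and 5.98), Gzma (8.1 and 7.02) and Nkg7 (12.49 and 12.18). Of 5 measured mast cell and basophil markers 2 were higher and 0 lower, with sums of 4374 to 4623 in Hi and 1594 to 1598 in Lo, and of 5 measured erythroid markers 5 were higher, with sums of 12382 to 14519 in Hi and 2129 to 2930 in Lo. Of 7 measured macrophage and monocyte markers 1 was higher and 0 lower, with sums of 2109 to 2869 in Hi and 1660 to 1716 in Lo. Of 6 measured B cell markers 0 were higher and 0 lower, with sums of 4417 to 4690 in Hi and 4351 to 4866 in Lo, and Pax5 exceeded the dim limit on none of the 4 arrays. The dendritic cell list had 2 higher and 1 lower of 6 markers, with sums of 2065 to 2417 in Hi and 1513 to 2002 in Lo. Its lower gene, Xcr1, exceeded the dim limit only on Lo replicate 1. The megakaryocyte list had 2 higher and 1 lower of 5, with sums of 5104 to 6081 in Hi and 3806 to 4498 in Lo. Gp6, 1 of its higher genes, did not exceed the dim limit on any array. The neutrophil list had 2 higher and 0 lower of 7, with sums of 38152 to 47297 in Hi and 28144 to 40328 in Lo. The part of such cells in the values of the SLAM genes was not tested.

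Inside the cell the receptors work through the SAP adaptors. Sh2d1a, which encodes SAP, stood at 5.37 and 4.07 in Hi and at 5.54 and 7.44 in Lo. Lo replicate 2 was far above the other 3 arrays, as for Slamf8, and the fitted difference was -1.77 ± 0.83 (SE; limma unadjusted p = 0.0992). Hi replicate 2 was under the dim limit, so the size of this difference is uncertain. The adaptor genes Sh2d1b1 and Sh2d1b2 share a probe set and have none of their own, so neither is read here. Fyn, the kinase that SAP brings in, stood at 11.04 and 11.2 in Hi and at 11.28 and 11 in Lo, with a difference of -0.02 ± 0.17.

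Among 19 measured genes of proximal SLAM signalling, 0 were higher in Hi and 4 lower at an unadjusted p under 0.05, beside the same shares of all genes (9.25% and 11.0%). Of the 19, 18 had a negative difference, beside 8445 of all 18193 genes, and some of the 18 were near 0, such as Fyn at -0.02. For 13 of the 19 both Hi arrays lay below both Lo arrays, where 25.4% of all genes did. The median was -0.33 against 0.03 for all genes. The 4 were the adaptor gene Dok2 at -0.55 ± 0.14 (SE), the CD45 phosphatase gene Ptprc at -0.58 ± 0.15, the protein kinase C theta gene Prkcq at -0.94 ± 0.26 and the T cell adaptor gene Lat at -0.46 ± 0.16. None was called (smallest limma adjusted p = 0.182). The phosphatases that bind SLAM tails without SAP stood at -0.33 ± 0.16 for Ptpn6, -0.04 ± 0.13 for Ptpn11 and -0.40 ± 0.16 for Inpp5d, which encodes SHIP1.

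Cd2, a relative of the family that binds Cd48 in mice, stood at 6.66 and 6.23 in Hi and at 7.32 and 7.26 in Lo. The Hi arrays were lower without overlap, by a difference of -0.85 ± 0.20 (SE; limma unadjusted p = 0.0137, adjusted p = 0.169). The 2 partners of Cd48 therefore differed in sign, Cd244a with higher and Cd2 with lower values in Hi. Of the 3 measured genes for proteins that bind the tail of Cd2, none passed an unadjusted p of 0.05, and the median of the list of 4 was -0.44. Slamf1 is also known to bring a lipid kinase complex and the NADPH oxidase to phagosomes of macrophages. Of 8 measured genes of that list 1 was higher, the oxidase subunit gene Ncf4 at 0.51 ± 0.17, and 1 lower, the lipid kinase gene Pik3c3 at -0.47 ± 0.17, with a median of -0.18. These counts are near the shares of all genes (9.25% and 11.0%).

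**Figure D3:**
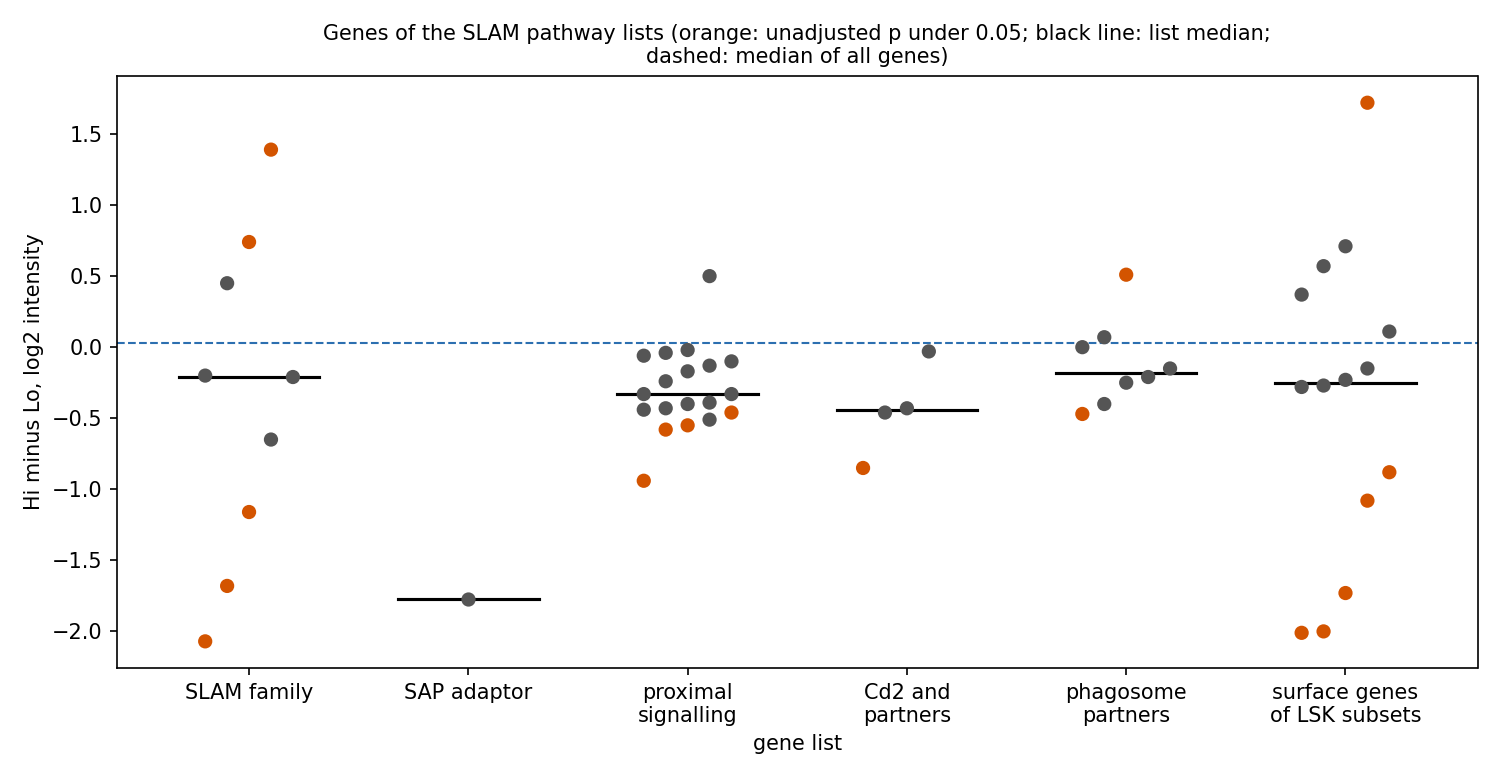
Difference of Hi minus Lo in log2 intensity (vertical axis) for each gene of 6 lists (horizontal axis) at its brightest probe set, with the list median as a black line, the median of all genes (0.03) as a dashed line, and genes at an unadjusted p under 0.05 in orange. SLAM family genes lie on both sides of 0, from 1.39 for Cd244a to -1.68 for Slamf1 and a fitted -2.07 for Slamf8, whose Hi arrays are under the dim limit. Of 19 genes of proximal signalling 18 lie below 0, beside 8445 of all 18193 genes, which unlike the 19 include genes under the dim limit.

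The surface genes used beside SLAM to divide LSK cells were set next to the family. Of 14 measured, 1 was higher in Hi and 5 lower at an unadjusted p under 0.05, beside 9.25% and 11.0% of all genes, with a median of -0.25 against 0.03 for all genes. The stem cell surface genes Procr, Tek and Esam had the smallest limma unadjusted p-values of this list. Procr, which encodes the protein C receptor, stood at 9.62 and 9.91 against 11.71 and 11.81, Hi against Lo. The angiopoietin receptor gene Tek stood at 8.64 and 8.71 against 10.33 and 10.47, and the adhesion gene Esam at 8.55 and 8.01 against 10.36 and 10.22. None of the 3 overlapped between the groups, and each had lower values in Hi, as Slamf1 had. Their differences were -2.00 ± 0.17 (SE), -1.73 ± 0.14 and -2.01 ± 0.24, with standard errors smaller than the 0.52 of Slamf1, and limma adjusted p-values of 0.0839, 0.0839 and 0.0947. Thy1 had a difference of -1.08 ± 0.25 and the gene of the TGF-beta co-receptor Eng of -0.88 ± 0.21. The 1 higher gene was Fcgr3, an Fc receptor gene of myeloid progenitors, at 1.72 ± 0.57. Of all 14, 5 had a positive difference and 9 a negative difference. Among the 5 were Cd9 at 0.71 ± 0.63, where the groups overlapped, and Itga2b at 0.37 ± 0.16, where they did not. Cd34 and Flt3, which separate multipotent progenitors from long-term stem cells, had differences of 0.11 ± 0.13 and -0.15 ± 0.18, with values of 12.87 and 12.92 in Hi and 12.79 and 12.78 in Lo for Cd34 and 12.3 and 12.5 in Hi and 12.4 and 12.7 in Lo for Flt3.

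All 9 members lie on chromosome 1. In the order of the RefSeq gene table they follow as Cd244a, Ly9, Slamf7, Cd48, Slamf1, Cd84 and Slamf6, with no other measured gene among these 7, and after a stretch of other genes come Slamf9 and Slamf8. Along the 7 the differences did not share a sign: values were higher in Hi for Cd244a, overlapped for Ly9, and were lower for Slamf7, higher for Cd48, lower for Slamf1 and Cd84 and higher for Slamf6. Of 23 measured neighbours, 1 was higher in Hi and 2 lower at an unadjusted p under 0.05, which is no more than the 9.25% and 11.0% of all genes, with a median of 0.08. The junction adhesion gene F11r, the second measured gene before Cd244a, stood at 8.4 and 8.51 in Hi and at 9.78 and 9.85 in Lo, a difference of -1.36 ± 0.14 (SE; limma adjusted p = 0.0846). Pea15a had a difference of -0.78 ± 0.17 and Igsf9 of 0.65 ± 0.15, while Vangl2, which directly follows Slamf6 among measured genes, had 0.48 ± 0.41. Of the neighbours, 14 exceeded the dim limit on all 4 arrays and 4 on none.

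**Figure D4:**
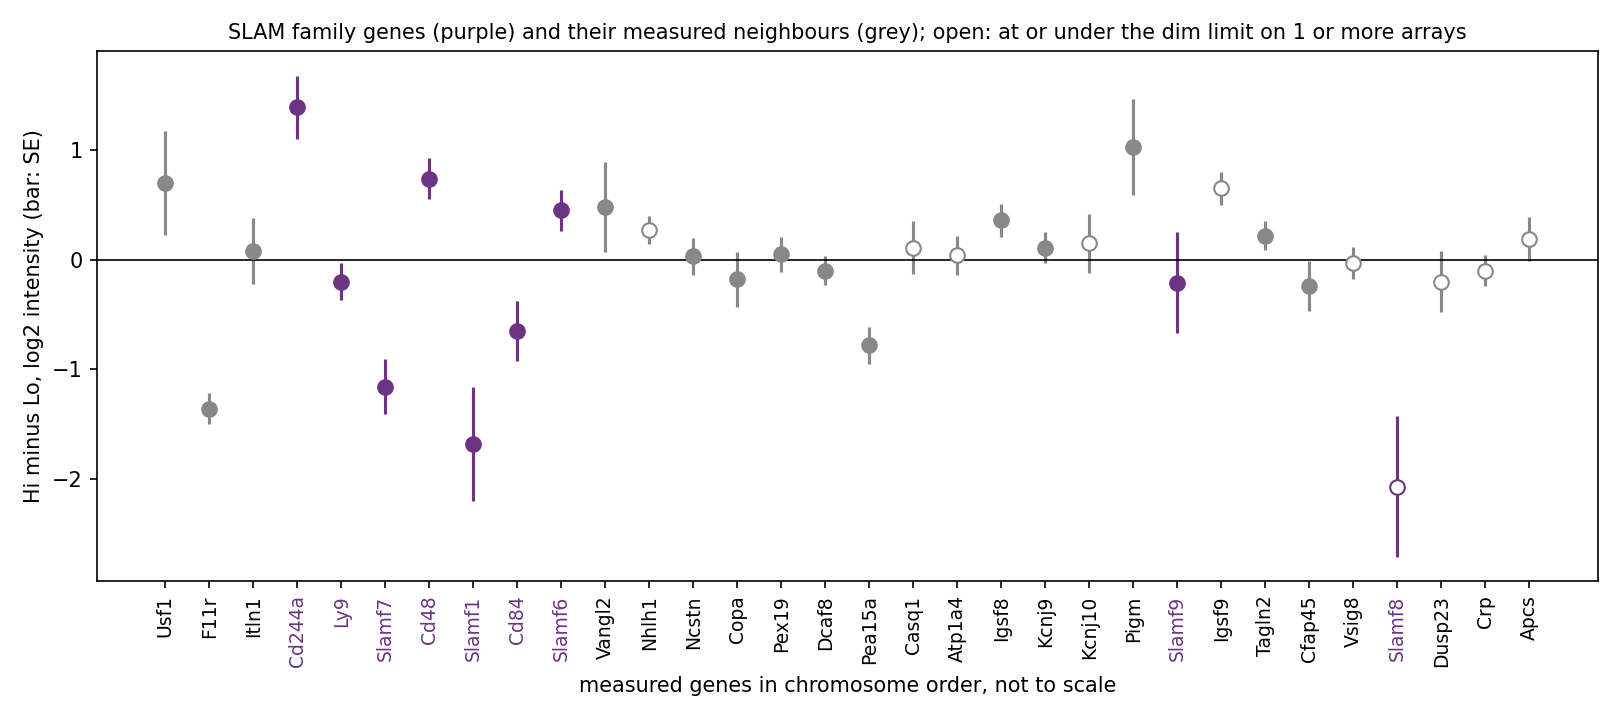
Difference of Hi minus Lo in log2 intensity (vertical axis, bars SE) of the SLAM family genes (purple) and 23 measured neighbours (grey) in chromosome order, not to scale (horizontal axis), with open points for genes at or under the dim limit on 1 or more arrays. The neighbouring genes Cd48 (0.74) and Slamf1 (-1.68) lie on opposite sides of 0.

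The genes whose pattern over the 4 arrays was most like that of Slamf1 or Cd48 were found by the Euclidean distance between profiles centred on their own mean, over 12794 genes above the dim limit on at least 2 arrays. Closest to Slamf1 were Cpne8 at a distance of 0.153 log2 units, Inca1 at 0.276 and Rai2 at 0.276. Cpne8, a copine gene, stood at 8 and 6.67 in Hi and at 9.35 and 8.71 in Lo, with Hi replicate 2 the lowest array as for Slamf1. Closest to Cd48 were Eprs at 0.0403, Flvcr1 at 0.0478 and Prmt1 at 0.0662. Eprs, a tRNA synthetase gene, stood at 11.33 and 11.26 in Hi and at 10.73 and 10.36 in Lo, and Flvcr1, a haem exporter gene, at 10.38 and 10.42 in Hi and at 9.86 and 9.46 in Lo. With 4 arrays such a distance is a description of these arrays only.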

How the data were processed

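Transcript levels were measured in 4 samples of sorted mouse LSK cells, 2 Hi and 2 Lo. Per the labels' protocols, 5 ng of total RNA was amplified with a NuGEN Ovation system, which can compress or spread differences, and labelled with biotin. The deposited file holds an intensity for every probe set on each array, made with RMA per the submitters' processing notes, in a version not given in the sources used here. RMA makes the arrays alike in distribution, which hides any change of total RNA in a cell. The values span a linear range and were log2-transformed here with no offset.

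Of 45101 probe sets, 64 controls were left out. The platform annotation gave 1 symbol to 34945 of the rest, several to 932 and none to 9160, and 34741 were matched through Entrez identifiers to a RefSeq gene table of GRCm38.p6. A gene was represented by its brightest probe set (18193 genes), with all probe sets of a member shown. Hi minus Lo was fitted with limma 3.58.1 in R 4.3.3 (lmFit, eBayes with a constant prior, two-sided, no block; 2 residual and 1.976 prior degrees of freedom), which was tested on simulated data. With 2 arrays per group the number of arrays limits precision. Named were all members, the SAP adaptors, up to 4 genes per list and of the neighbours by smallest unadjusted p, Myc and Kit, and the 3 closest profiles to Slamf1 and Cd48; other genes were chosen after their values were seen. The members and lists were chosen with earlier results of these data known. Lists are described by counts and medians, with no set test. Alternatives were other scalings, an added intensity of 16, a dim filter, other variance settings, gene summaries, a replicate block and leaving out each array.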

Additional observations from a re-analysis of the deposited data

How the results depend on the processing

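Under 14 alternatives 0 members were called; the lowest adjusted p of a member was 0.0826, for Slamf7 with probe sets averaged per gene. The direction of 8 of the 9 genes was the same in all 14, and Slamf9 turned to 0.01 without Hi replicate 2 and 0.36 without Lo replicate 2. Leaving out single arrays, the difference ran from -2.36 to -0.99 for Slamf1, 0.53 to 0.94 for Cd48, 1.08 to 1.70 for Cd244a, -0.32 to -0.08 for Ly9, -0.94 to -0.35 for Cd84, 0.24 to 0.65 for Slamf6, -1.46 to -0.87 for Slamf7, -2.92 to -1.21 for Slamf8 and -0.79 to 0.36 for Slamf9, and Slamf1 minus Cd48 within arrays from -3.08 to -1.74. The count of member probe sets at an unadjusted p under 0.05, 6 as reported, was 0 with the ordinary test without moderation and 3 to 8 leaving out single arrays, with 3 without Lo replicate 2. Over all probe sets 0 were called as reported, 1 with the ordinary test, and by fits over 18193 genes 528 with averaged probe sets and 404 with the brightest probe set, where the values, the variance prior and the number of features tested all differ and the cause was not tested; leaving out any 1 array gave 0. With the replicate number as a replicate block, 0 probe sets were called (smallest limma adjusted p = 0.193). In that fit 7 of the 15 member probe sets had an unadjusted p under 0.05, beside 16.9% of all probe sets. The sample titles number the replicates of both groups alike, and whether equal numbers stand for a shared sort was not tested. The replicate 1 minus replicate 2 differences of Hi and Lo correlated at 0.07 across probe sets. Many of these probe sets are dim, so this value cannot decide whether the arrays were paired. Signals near the dim limit bound what can be read for Slamf7, Slamf8 and Slamf9.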
